A study of Mus musculus with 4 samples.

Results

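Chst and Galnt genes encode enzymes of the Golgi that build sulfated and mucin-type glycans. The 10 genes described here are Chst1, Chst2, Chst3, Chst7, Chst11 and Chst15, carbohydrate sulfotransferases, and Galnt1, Galnt2, Galnt3 and Galnt7, polypeptide N-acetylgalactosaminyltransferases. The values are ATAC-seq peaks, stretches of open chromatin in which a transposase inserts sequencing adapters more often than in the surrounding DNA. Overlapping peaks of the 4 libraries were joined into 40910 regions, and 35041 of these had a start of a protein-coding transcript within 100 kb and were assigned to the nearest one. The 10 genes held 48 of the 35041. They were selected on the day 4 and day 2 peak calls themselves, for regions gained at Chst2 and lost at Chst3 and Galnt2, so these calls are given as a description, with no test.

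The cells were ES-E14TG2a, an established line of mouse embryonic stem cells grown without feeder cells, in a serum-free protocol that leads to cardiogenic mesoderm. The paper calls the unedited parental line WT beside its enhancer deletion clones. The d4 cells were collected after re-aggregation of the embryoid bodies with Activin A, BMP4 and VEGF, and the d2 cells before these factors were added. Each day had 2 libraries, from separate differentiation experiments, with about 15000 cells per library. All cells of an embryoid body culture were taken with no sorting, and the share of cells in which a region was open cannot be told apart from how open it was in each cell. A region is called gained where both d4 libraries and neither d2 library had a peak, lost where both d2 libraries and neither d4 library had one, and shared where all 4 had one.

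The libraries held 22511 and 21299 peaks at d4, against 26865 and 24544 at d2. Their genome-wide background coverage was 0.755 and 0.744 at d4, against 0.568 and 0.483 at d2, in fragments or extended reads per base, so the d2 libraries were the shallower ones. Their peaks nevertheless stood further above this background, with a median summit in shared regions of 33.1 and 32.3 times the background at d4, against 38.7 and 55.9 times at d2. Over all 35041 assigned regions 8.48% were gained and 13.2% lost, and counts at marker genes are read beside these shares. The promoters of the pluripotency genes Pou5f1 and Zfp42 were lost, and those of Nanog, Sox2, Esrrb and Dppa5a were not lost, gained or shared. The regions of 4 cardiac genes included 4 gained and 0 lost of 15. Those of 7 endothelial genes included 2 gained and 0 lost of 29, and those of 5 early mesoderm genes 4 gained and 1 lost of 23. The 4 primed epiblast genes had 0 gained and 4 lost of 16 regions, the 2 neural and the 2 endoderm genes had 1 gained and 4 lost each, of 12 and 16, and the 6 pluripotency genes together had 1 gained and 3 lost of 20. The gained share of the endothelial genes (6.9%) was below that over all regions and the lost share of the pluripotency genes (15%) close to it. The part of cell makeup in the values of the 10 glycan enzyme genes was not tested.

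Carbohydrate sulfotransferases move a sulfate from the activated donor PAPS to a fixed position on a sugar. Chst3, Chst7, Chst11 and Chst15 act on chondroitin sulfate, a chain carried by proteoglycans of the matrix and the cell surface, whereas Chst1 and Chst2 act on galactose and N-acetylglucosamine in keratan sulfate and related chains. Where sulfates sit on the chain is known to set which growth factors and matrix proteins it binds. Galnt enzymes attach the first sugar, N-acetylgalactosamine, to serine or threonine of a protein, the step that starts mucin-type O-glycosylation, and differ in the protein sequences they prefer. Both families act in most tissues, and chondroitin sulfate is abundant in the matrix of the early embryonic heart.

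The following stretches, from the mm10 genome (GRCm38), are shown because the gained regions of Chst2 and the lost regions of Chst3 and Galnt2 are the reason for the choice of these genes. The first group shows the summit with 100 bases on either side for the tallest peak of each of the 3 gained Chst2 regions and of a gained region each of Galnt7 and Chst15 that held 3 GATA words; capitals mark the core words of the site of GATA factors on either strand, which are AGATAA and also AGATAG, and likewise TGATAA and also TGATAG.
Chst2 gained region 91.5 kb from the start, chr9:95314909-95315109, plus strand: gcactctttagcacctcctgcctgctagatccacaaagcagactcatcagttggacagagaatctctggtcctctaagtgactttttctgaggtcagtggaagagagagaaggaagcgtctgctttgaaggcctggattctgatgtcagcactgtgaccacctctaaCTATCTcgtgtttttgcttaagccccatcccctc
Chst2 gained region 89.6 kb from the start, chr9:95316910-95317110, plus strand: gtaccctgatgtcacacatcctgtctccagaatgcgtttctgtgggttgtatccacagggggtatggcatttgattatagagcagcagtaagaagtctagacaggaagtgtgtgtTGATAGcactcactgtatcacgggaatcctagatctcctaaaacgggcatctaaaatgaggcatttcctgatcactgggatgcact
Chst2 gained region 25.4 kb from the start, chr9:95381137-95381337, plus strand: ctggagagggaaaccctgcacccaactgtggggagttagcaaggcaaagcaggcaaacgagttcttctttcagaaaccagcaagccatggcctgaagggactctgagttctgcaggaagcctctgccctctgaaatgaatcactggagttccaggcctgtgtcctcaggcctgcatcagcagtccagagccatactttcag
Galnt7 gained region 50.6 kb from the start, chr8:57602176-57602376, plus strand: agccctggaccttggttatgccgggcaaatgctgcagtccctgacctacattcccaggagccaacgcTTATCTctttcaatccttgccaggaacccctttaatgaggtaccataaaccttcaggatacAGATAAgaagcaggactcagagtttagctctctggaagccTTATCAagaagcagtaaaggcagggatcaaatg
Chst15 gained region 37.8 kb from the start, chr7:132278653-132278853, plus strand: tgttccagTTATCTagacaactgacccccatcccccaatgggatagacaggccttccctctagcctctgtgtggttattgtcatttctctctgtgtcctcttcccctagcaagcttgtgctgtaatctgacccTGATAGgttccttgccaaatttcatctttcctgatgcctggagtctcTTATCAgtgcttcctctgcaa

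The second group shows the lost side. The window of the tallest lost region of Chst3 has capitals at CCACNAGG and CCAGNAGG on either strand, a core of the site of the insulator protein CTCF. The stretches of 200 bases that end just before the annotated gene starts of Chst3 and Galnt2, where both genes lost their promoter region, are read on the strand of the gene and have CG in capitals.
Chst3 lost region 22.3 kb from a downstream coding start, chr10:60166093-60166293, plus strand: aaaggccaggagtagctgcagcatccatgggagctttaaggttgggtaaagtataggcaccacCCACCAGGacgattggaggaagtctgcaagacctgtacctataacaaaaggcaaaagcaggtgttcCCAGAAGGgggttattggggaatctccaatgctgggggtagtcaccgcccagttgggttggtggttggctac
Chst3 before its start, chr10:60219261-60219460, minus strand: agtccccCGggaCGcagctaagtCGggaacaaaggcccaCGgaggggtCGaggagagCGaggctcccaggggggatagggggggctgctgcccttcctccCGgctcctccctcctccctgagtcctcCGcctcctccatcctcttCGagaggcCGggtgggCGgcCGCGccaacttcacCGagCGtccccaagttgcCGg
Galnt2 before its start, chr8:124231191-124231390, plus strand: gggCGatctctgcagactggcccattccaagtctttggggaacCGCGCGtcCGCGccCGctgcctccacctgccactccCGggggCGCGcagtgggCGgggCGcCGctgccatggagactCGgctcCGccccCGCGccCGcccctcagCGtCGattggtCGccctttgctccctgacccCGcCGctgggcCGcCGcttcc

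The 48 regions comprised 8 gained (16.7%), 8 lost (16.7%), 6 shared (12.5%) and 26 others. Over all assigned regions, 8.48% were gained, 13.2% were lost and 31.9% were shared. The gained and lost shares follow from how the genes were chosen and nothing is read from them. Of the 48 regions, 23 had a peak in 1 library only (47.9%, against 34.5% of all assigned regions), 17 in 2 libraries, 2 in 3 and 6 in 4. Of the 15050 coding genes, 744 held both a gained and a lost region (4.94%), and 0 of these 10 did, which follows in part from how they were chosen. Chst2, Chst11, Chst15 and Galnt7 had gained regions and no lost one, Chst3 and Galnt2 had lost regions and no gained one, and Chst1, Chst7, Galnt1 and Galnt3 had neither. All 6 shared regions were promoters, 1 each of Chst2, Chst7, Chst11, Chst15, Galnt3 and Galnt7, and all 4 genes with a gained region were among these 6.

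**Figure D1:**
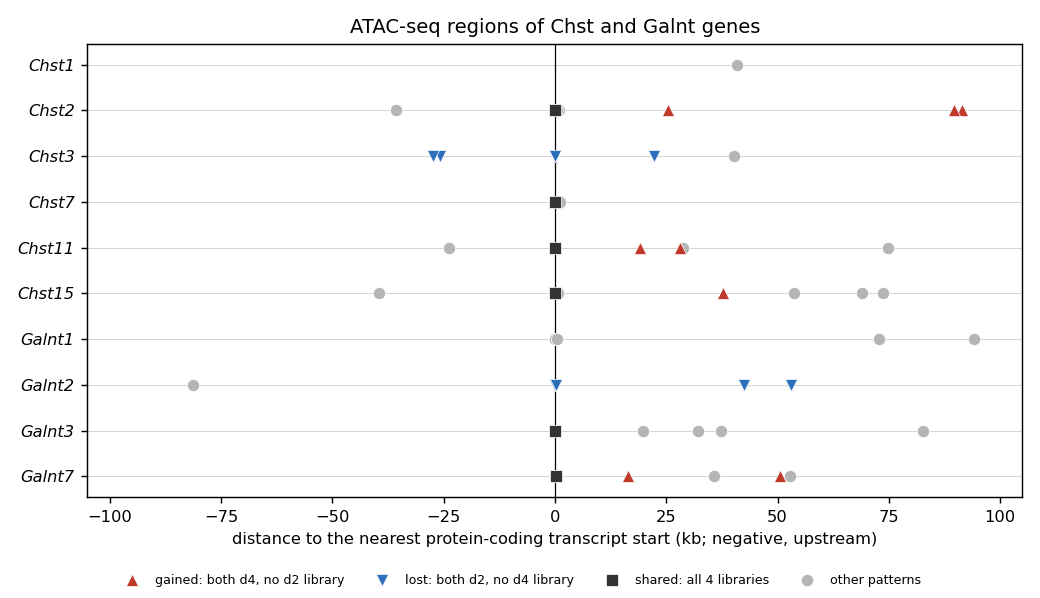
Distance in kb of each of the 48 regions to the nearest protein-coding start of its gene, for the 10 genes, with upstream distances negative. Triangles pointing up are gained, triangles pointing down are lost, squares are shared and circles are other regions; the 8 gained regions lie 16.4 to 91.5 kb from the start, and Chst3 and Galnt2 hold all 8 lost ones.

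Chst2, an N-acetylglucosamine sulfotransferase known for the sulfated ligands of L-selectin, had the most gained regions of the 10 genes. A region at chr9:95316728-95317170, 89.6 kb downstream of the start, had a summit pileup, the number of fragments or extended reads that cover the highest point of the peak, of 21 and 22 in the d4 libraries and no peak in either d2 library. A second region 91.5 kb downstream (chr9:95314873-95315174) had pileups of 14 and 11 at d4 and no peak at d2, and the third, 25.4 kb downstream (chr9:95380968-95381360), had 17 and 13 at d4 and no peak at d2. All 3 lay beyond the end of the gene in intergenic DNA, and the next coding gene, U2surp, started 130 to 197 kb from them. The deposited −log10 q in d4 replicates 1 and 2 was 13 and 15.8 for the region at 89.6 kb, against 14.4 and 9.85 for that at 25.4 kb. The region at 89.6 kb was the only one of the 8 gained regions that remained at a −log10 q of at least 10. Ranked by the lower of its d4 fold enrichments among all gained regions of the 40910, it stood at percentile 67.3, that at 25.4 kb at 68.5 and that at 91.5 kb at 4.26. The widths of 443, 393 and 302 bp compare with a median of 283 bp for gained regions.

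The Chst2 promoter (chr9:95406522-95407881) was the tallest of all 48 regions and was open on both days. Its pileups were 52 and 45 at d4, against 38 and 68 at d2, so the d2 libraries lay on either side of both d4 values. Close to it, single peaks were called 929 bp from the start in d4 replicate 1 (pileup 20) and 569 bp from the start in d2 replicate 1 (pileup 20), and a region upstream, at −35.6 kb, had a pileup of 13 in d4 replicate 1 and 13 in d2 replicate 1. At least 3 gained and no lost regions were found at 80 of 15050 coding genes with a region (0.532%), and 56 had exactly the 3 gained and 0 lost of Chst2. Among these 56, those nearest to it in total number of regions, with ties by name, were Abtb2, Cavin2, Edn3, Epc2 and Frmd4b, each with 7 regions.

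Chst1, the galactose sulfotransferase of keratan sulfate, had 1 region, 40.9 kb downstream of its start, with a pileup of 11 in d2 replicate 2 alone. No peak was called at its promoter in any library. The assignment limit of 100 kb passes close to this gene: regions at 102, 103 and 111 kb, each called in 1 library with a pileup of 11, fell outside. Just inside the limit were a Galnt1 region at 94.2 kb (pileup 8 in d2 replicate 1) and the Chst2 region at 91.5 kb, and a further gained region nearest to Chst2, at 257 kb with pileups of 17 and 15 at d4, was outside.

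Chst3, the main chondroitin 6-O-sulfotransferase, showed the opposite arrangement, with 4 lost regions, no gained and no shared one. The tallest lay at chr10:60166049-60166435, beyond the end of the gene and 22.3 kb from the nearest coding start, that of a transcript which begins inside the gene and not the gene start in the promoter region, with no peak at d4, against pileups of 24 and 24 at d2. Its lower d2 fold enrichment of 11 stood at percentile 95 of all lost regions of the 40910. The promoter region (chr10:60218736-60219459), which spans the annotated start, had no peak at d4, against 18 and 15 at d2. A pair of regions upstream of the gene was lost as well. That at −27.4 kb (chr10:60246667-60246844) had no peak at d4, against pileups of 12 and 17 at d2, and that at −25.9 kb (chr10:60245190-60245339) had no peak at d4, against 9 and 9 at d2. The fifth region, 40.3 kb from a start, had a pileup of 11 in d2 replicate 1 alone, so Chst3 had no peak of any kind in a d4 library.

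Galnt2, a widely expressed initiator of O-glycosylation, likewise had 4 lost regions and no gained or shared one. The region over its start (chr8:124231065-124231395) had no peak at d4, against pileups of 21 and 23 at d2, and a second promoter region 159 bp inside the gene (chr8:124231550-124232024) had no peak at d4, against 9 and 16 at d2. These neighbouring regions were counted separately. Merging within 500 bp left 3 lost regions at Galnt2 and 4 at Chst3, and a −log10 q of at least 5 left 2 and 4. In the introns, the region 53 kb from the start (chr8:124284374-124284554) had no peak at d4, against 11 and 18 at d2, and that at 42.5 kb (chr8:124273916-124274118) had no peak at d4, against 16 and 8 at d2. The region over the start stood at percentile 92.7 of lost regions by its lower fold enrichment, whereas the other 3 stood at 4.89, 5.31 and 40.2, so Galnt2 had a single tall lost region and 3 of low to middle height. The only d4 peak of the gene was upstream, at −81.3 kb, in d4 replicate 2, with a pileup of 9. The gene lies inside the annotated readthrough gene Gm20388, which covers the same regions.

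At least 4 lost and no gained regions were found at 19 of 15050 coding genes (0.126%), and 14 genes had exactly 4 lost and 0 gained. The count for Galnt2 takes its neighbouring promoter regions as separate ones. Chst3 and Galnt2 were nearest to each other in total number of regions, 5 each, followed for both by Lbh and Nfasc with 5 and by Arhgap22 and Rap1gap2 with 6. Of 12584 coding genes with a region within 1000 bp of a coding start, 8940 had a shared one (71.0%), as had Chst2, Chst7, Chst11, Chst15, Galnt3 and Galnt7. A promoter region that was lost, with none shared or gained, occurred at 1027 genes (8.16%), among them Chst3 and Galnt2.

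**Figure D2:**
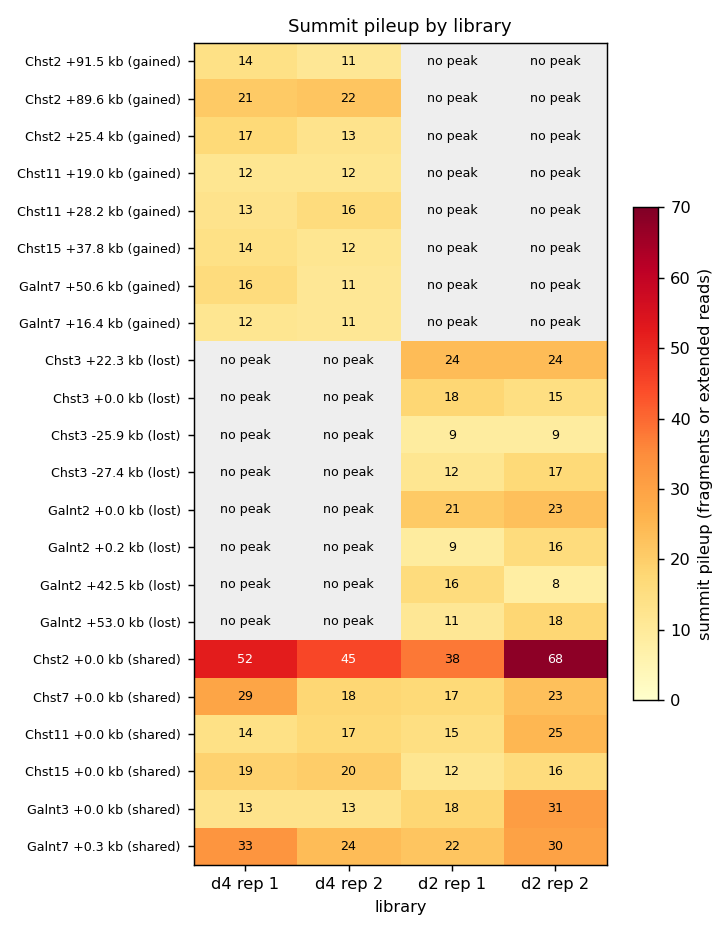
Summit pileup, in fragments or extended reads at the highest point of the peak, of the 8 gained, 8 lost and 6 shared regions, with the d4 libraries left of the d2 libraries and grey cells where no peak was called. The gained regions reached 11 to 22 at d4, the lost regions 8 to 24 at d2, and the Chst2 promoter 38 to 68 in all 4 libraries.

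Of the 4 chondroitin sulfotransferases among the 10 genes, Chst7, Chst11 and Chst15 had a promoter peak in all 4 libraries. Chst7, a second chondroitin 6-O-sulfotransferase, had a promoter (chrX:20059186-20059904) with pileups of 29 and 18 at d4, against 17 and 23 at d2, and the values of the days overlapped. Its only other region, in an exon 1.06 kb from the start, had a pileup of 7 in d2 replicate 1. Chst11, which adds sulfate to the 4-O position of N-acetylgalactosamine in chondroitin, had a promoter (chr10:82985044-82985835) with 14 and 17 at d4, against 15 and 25 at d2. It also had 2 gained regions in introns: that at 28.2 kb (chr10:83013747-83014011) had pileups of 13 and 16 at d4 and no peak at d2, and that at 19 kb (chr10:83004467-83004684) had 12 and 12 at d4 and no peak at d2. Both stood in the lower part of all gained regions, at percentiles 22.4 and 23.2. The other 3 regions of Chst11 were called in 1 library each, with pileups of 11 or 12.

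Chst15, which adds a further sulfate to chondroitin already sulfated at the 4-O position, had 7 regions, of which 5 were called in single libraries. Its promoter (chr7:132316480-132317485) had pileups of 19 and 20 at d4, against 12 and 16 at d2, and was the shared region of the 6 in which both d4 values were above both d2 values. The gained region, at chr7:132278709-132278960, had 14 and 12 at d4 and no peak at d2. It lay 37.8 kb inside the gene from the coding start, but 84 bp from the start of a noncoding Chst15 transcript, and so counts as a promoter by the annotation. A long transcript of Fgfr2 also covers this locus. The 5 single-library regions had pileups of 11 and 10 in a d4 library and of 11, 9 and 10 in a d2 library.

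Of the 4 Galnt genes, Galnt7 was the one with gained regions. Galnt7, which prefers proteins that already carry N-acetylgalactosamine, had a gained intronic region 50.6 kb from the start (chr8:57602209-57602420) with pileups of 16 and 11 at d4 and no peak at d2, and another at 16.4 kb (chr8:57636432-57636653) with 12 and 11 at d4 and no peak at d2. Its promoter (chr8:57651751-57652690) had 33 and 24 at d4, against 22 and 30 at d2, and the days overlapped. The other 3 regions were called in 1 library each: 13 in d4 replicate 2 at 18 bp from the start, 9 in d2 replicate 1 at 35.8 kb and 16 in d2 replicate 2 at 52.7 kb.

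Galnt3, known for the O-glycosylation that protects the hormone FGF23 from cleavage, had a promoter (chr2:66123959-66125428) with pileups of 13 and 13 at d4, against 18 and 31 at d2. Both d4 values were below both d2 values. Its other 4 regions were called in 1 library each, with pileups of 13 and 11 in d4 replicate 2 and of 14 and 9 in a d2 library. Galnt1, a widely expressed initiator of O-glycosylation, was the one gene with regions in 3 libraries. Its promoter had a pileup of 14 in d4 replicate 1 and no peak in d4 replicate 2, against 10 and 12 at d2, and a region at 72.8 kb had 13 in d4 replicate 1 and no peak in d4 replicate 2, against 8 and 8 at d2. The d4 replicates thus differed at both regions, and neither counts as lost. Single d2 peaks of 10 and 8 made up the rest of its 4 regions.

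To compare the shared promoters across libraries of unequal depth, each pileup was divided by the median pileup of all shared regions in that library, which was 25 and 24 at d4, against 22 and 27 at d2. On this scale the Galnt3 promoter was at 0.52 and 0.542 at d4, against 0.818 and 1.15 at d2, a log2 ratio of the means of −0.89. The Chst15 promoter was at 0.76 and 0.833 at d4, against 0.545 and 0.593 at d2, a log2 ratio of 0.49. The days did not overlap in these 2 promoters and did overlap in the other 4. The summits of the libraries lay up to 1067 bp apart in the Galnt3 region and 805 bp in the Chst15 region. In the other 4 this spread was 44 to 469 bp. Peaks were joined on an overlap of 1 bp, so the Galnt3 and Chst15 values need not come from the same site. Over all 11189 shared regions, both d4 values were above both d2 values in 29.5% and below them in 21.1%, so 1 promoter higher and 1 lower of 6 is near the background. Read within libraries of the same replicate number, on the same scale, Chst15 was higher at d4 in both pairs, where 36.4% of all shared regions were, and Galnt3 and Chst11 were lower in both, where 26.8% were.

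For the other 4 promoters the scaled values overlapped. Chst2 was at 2.08 and 1.88 at d4, against 1.73 and 2.52 at d2 (log2 ratio −0.10), and Galnt7 at 1.32 and 1 at d4, against 1 and 1.11 at d2 (0.14). Chst7 was at 1.16 and 0.75 at d4, against 0.773 and 0.852 at d2 (0.23), and Chst11 at 0.56 and 0.708 at d4, against 0.682 and 0.926 at d2 (−0.34). On this scale the order of levels therefore had Chst2 well above the others on both days, with no overlap with any of them. This did not hold for the deposited fold enrichment, which is relative to the local background. By fold, Chst2 was at 10.1 and 10.2 at d4, and Chst7 at 12.1 and 9.14. At d2, Chst2 was at 10.4 and 15.5 and Chst7 at 10.1 and 11.8, so these promoters overlapped on both days. With the background coverage as the scale in place of the shared regions, 0 of 6 promoters were higher and 2 were lower at d4, where 4.18% and 54.6% of all shared regions were, and with the deposited fold enrichment 0 were higher and 3 lower, where 13% and 30.4% of all were. Galnt3 was lower at d4 under each of the 3 scales, Chst11 under the background and fold scales, Chst2 under the fold scale only, and Chst15 was higher under the scale by shared regions only. Within same-numbered pairs, Galnt3 and Chst11 were lower at d4 in both pairs under each of the 3 scales, and Chst2 under the fold scale only. By background 2 of 6 promoters were thus lower in both pairs, where 63.8% of all shared regions were. By fold 3 of 6 were lower, where 39% of all were.

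**Figure D3:**
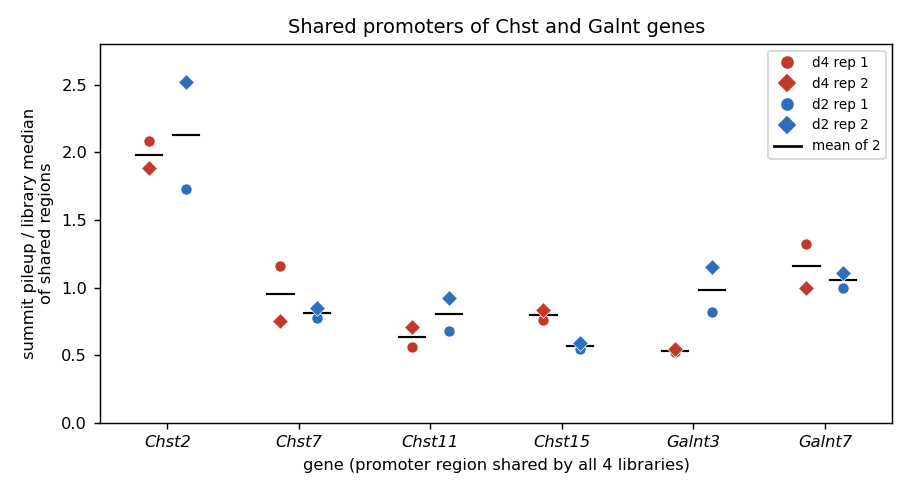
Scaled summit pileup (pileup over the library's median in shared regions) at the 6 promoters with a peak in all 4 libraries; d4 values stand left of d2 values, circles are replicate 1, diamonds replicate 2 and bars the mean of 2. Galnt3 is lower in both d4 libraries, Chst15 is higher in both, and the days overlap at Chst2, Chst7, Chst11 and Galnt7. The summits of the libraries lie up to 1067 bp apart at Galnt3 and 805 bp at Chst15.

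A missing peak is not a pileup of 0, and the peak lists hold no value below the calling threshold. For each gained or lost region, the smallest pileup that would have been called in the libraries without a peak was therefore worked out. It came from their lowest called −log10 p, that of the weakest peak, and from the local background. It was set against the mean height of the other day at the depth of those libraries. A ratio near 1 means that a region of equal height would barely have been called. With depth taken from the background coverage, the 8 gained regions had ratios of 1.01 to 1.81 over 16 pairs of region and library (median 1.29, against 1.5 for all gained regions of the 40910), and 12 of 16 were below 1.5. The 8 lost regions had ratios of 1.6 to 3.47 (median 2.24, against 2.17 for all lost regions of the 40910), with 0 of 16 below 1.5. With depth taken from the shared regions the order turned round, with 1.24 to 2.96 for the gained (median 1.9) and 1.11 to 2.47 for the lost regions (median 1.55, with 8 of 16 below 1.5).

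The Chst2 region at 91.5 kb had ratios of 1.05 and 1.01 by background coverage. On this scale a peak of the same height at d2 would have been at the edge of detection. With depth taken from the shared regions, the ratios of the region at 91.5 kb were 1.24 and 1.72. The Chst2 regions at 89.6 kb and 25.4 kb had ratios of 1.61 to 1.81 by background coverage and of 1.92 to 2.96 by shared regions. In its own test of read counts, the paper lists regions over each of these Chst2 sites as more accessible at d4. The Chst3 region at 22.3 kb and the Galnt2 region over the start had the largest ratios of the lost regions under both scales, 3.47 and 3.42 for Chst3 and 3.19 and 3.15 for Galnt2 by background coverage.

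**Figure D4:**
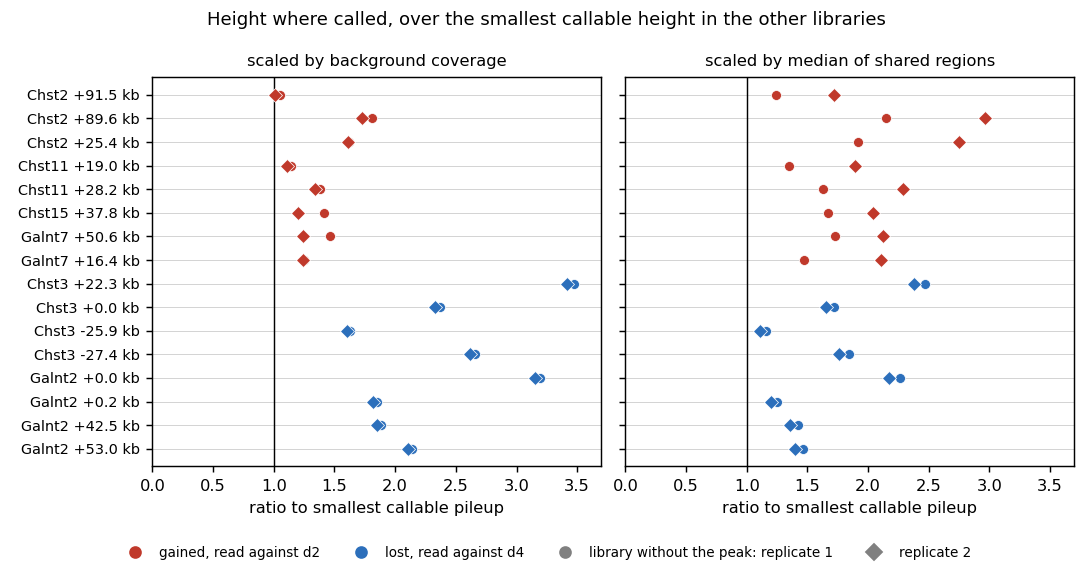
Ratio of the height on the day with a peak to the smallest callable height in each library without one, for the 8 gained regions (upper rows) and 8 lost regions (lower rows); circles are replicate 1 and diamonds replicate 2 of the day without a peak, and the line marks 1. By background coverage (left) the gained regions span 1.01 to 1.81 and the lost regions 1.6 to 3.47; by shared regions (right) they span 1.24 to 2.96 and 1.11 to 2.47.

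The words around the summits were counted on both strands. Distal regions are those over 1000 bp away from all annotated starts. One of the GATA words spelled out above, no more than 100 bp from the summit, was found in 6 of the 7 distal gained regions of these genes and in 0 of the 5 distal lost ones. Over the distal regions of the whole set of 40910, which includes regions more than 100 kb from a coding start, the share was 64.2% of 3566 gained, 18.4% of 3871 lost and 20.4% of 1630 shared. The Chst2 regions at 91.5 and 89.6 kb held 1 word each, in the capitals printed above, and that at 25.4 kb held none. Both Chst11 regions and the Galnt7 region at 16.4 kb held 1 each, and the Galnt7 region at 50.6 kb and the Chst15 region, which is not distal by the annotation, held 3 each. Within 50 bp of the summit 4 of the 7 held a word (45% of all gained), and within 150 bp 6 did (73.3% of all gained).

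An ETS core (ACAGGAA and ACCGGAA, and also CCAGGAA and CCCGGAA) was in 3 of 7 gained regions and 0 of 5 lost ones, against 26.4% and 15.6% overall; the 3 were the Chst2 region at 89.6 kb, the Chst11 region at 28.2 kb and the Galnt7 region at 50.6 kb. The CTCF words CCACNAGG and CCAGNAGG were in 3 of 5 lost regions, with 2 in the Chst3 region at 22.3 kb, and in 0 of 7 gained ones, against 21.6% of lost and 14.3% of gained regions overall. SOX words (AACAAAG or AACAATG) were in 1 of 7 gained and 2 of 5 lost regions, against 10.2% and 14.3%, and the octamer ATGCAAAT was in none of the 7 or the 5, against 0.757% and 5.37%. Of 12 motifs searched, no hits of different motifs overlapped in these windows, and a word is a description of the letters and not of a bound factor.

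The lost promoter region of Chst3 and the neighbouring lost promoter regions of Galnt2 were rich in CpG. Around the summits, the 3 of them had a median GC content of 75.6% and an observed over expected CpG ratio of 0.968, against 64.2% and 0.606 for the 1793 lost promoter regions of the whole set of 40910, and close to the 73.4% and 0.911 of the 6 shared promoters of these genes. The stretches printed above held 16 CG in the 200 bases before the Chst3 start (70.5% GC) and 25 in those before the Galnt2 start (75% GC). The distal regions were less rich, with a median GC of 49.3% for the 7 gained and 55.2% for the 5 lost ones, against 50.7% and 53.2% over all such regions. The median distance to the start was 33 kb for the 8 gained and 24.1 kb for the 8 lost regions, against 21.3 and 9.44 kb overall.

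Of the other members of both families, 8 further Chst genes had 16 regions, with 0 gained, 4 lost and 5 shared. A further 15 Galnt genes had 37 regions, with 4 gained, 8 lost and 6 shared. The shares over all assigned regions were 8.48% gained, 13.2% lost and 31.9% shared. Chst14, the sulfotransferase of dermatan sulfate, had 2 lost regions with a shared promoter, and Galnt16 had 3 lost regions including its promoter. The families as a whole thus held 6 gained and 8 lost of 44 regions for Chst, and 6 gained and 12 lost of 57 for Galnt. The median of gained minus lost regions per gene was 0 in both families, and 0 over all 15050 genes.

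The genes that supply, start and extend the same chains were counted in the same way. Over all assigned regions 8.48% were gained, 13.2% lost and 31.9% shared. With so few regions per list, nothing is read from a count of 0 gained. The 15 genes that make the chondroitin chain and its linker had 26 regions, of which 0 were gained, 1 was lost and 13 were shared, and the 9 genes of the sulfate donor had 13 regions with 0 gained, 1 lost and 8 shared. The 23 heparan sulfate genes had 75 regions with 9 gained, 10 lost and 15 shared, among them Ext1, a polymerase of the chain, with 2 gained and 0 lost. The 17 genes of O-glycan extension had 46 regions with 6 gained, 6 lost and 11 shared, among them the sialyltransferases St3gal1, with 3 gained and 0 lost, and St6galnac3, with 1 gained and 3 lost. The 7 keratan sulfate genes, which include Chst1 and Chst2, had 21 regions with 4 gained, 1 lost and 4 shared, and 3 of the 4 gained ones were those of Chst2. The median of gained minus lost per gene was 0 in each of these lists.

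**Figure D5:**
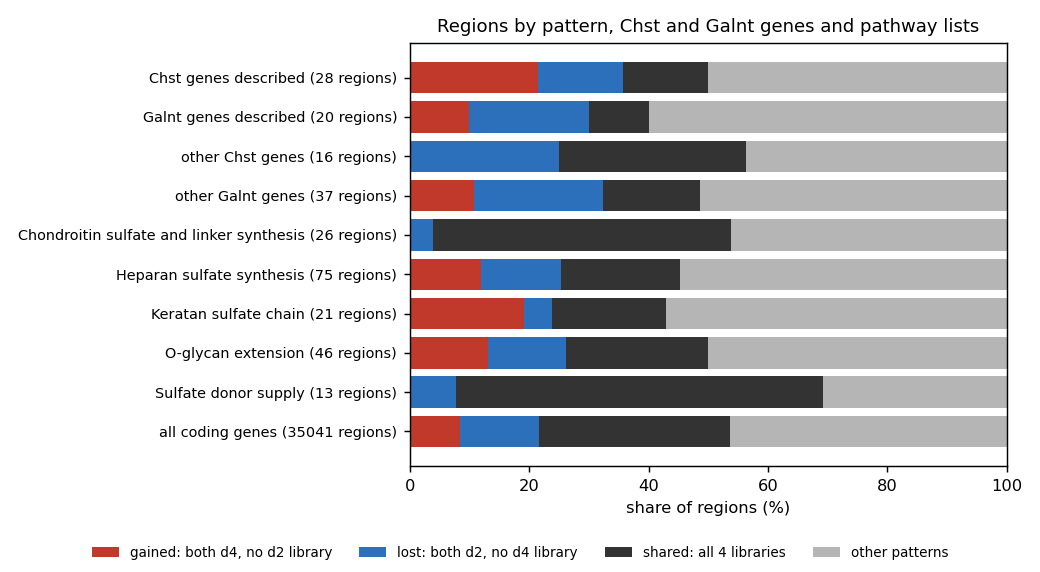
Share of regions, in percent, that were gained, lost, shared or of another pattern, for the 6 Chst and 4 Galnt genes described, the other genes of both families, the pathway lists and all coding genes. The chondroitin chain and sulfate donor lists have 0 gained of 26 and 13 regions, where 8.48% of all assigned regions are gained. Their shared shares are 50% and 61.5%, where the share over all coding genes is 31.9%. Of all shared regions, 87.7% are promoters, and these lists hold few regions, 26 over 15 genes and 13 over 9. The shares of the Chst and Galnt genes described follow in part from their choice by gained and lost regions.

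The number of gained regions was 8 with all libraries and 14 without d4 replicate 1, and that of lost regions 15 without d2 replicate 1 and 15 without d2 replicate 2, since a peak in a single library of that day then suffices. At a −log10 q of at least 10 there were 1 gained and 4 lost regions.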

How the data were processed

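The files were ATAC-seq peak lists, 1 per library, for 2 d4 and 2 d2 libraries. Per the study's methods the authors trimmed adapters (cutadapt), mapped the pairs with Bowtie2 against mm10, discarded mitochondrial reads, duplicates and multi-mapped reads, called peaks in each library with MACS2 and removed blacklisted regions. The methods give paired-end mode together with a shift and an extension, so the height is called fragments or extended reads. The deposited columns hold a score, the fold enrichment at the summit (a ratio), the −log10 p and −log10 q values, and the summit offset; the lowest −log10 q was 3 in 3 libraries and 3.02 in the other, which is the authors' threshold of about 0.001. Read counts were not used here, so no count test was run, and a peak that is absent can be a peak just under the threshold.

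Peaks overlapping by at least 1 bp were joined across libraries, and each region was assigned to the nearest protein-coding start of GENCODE M21 within 100 kb, from its nearest edge, with ties to the first gene by name. Promoters were regions no more than 1000 bp away from an annotated start of whatever gene type. The summit pileup and the local background were solved from the fold enrichment and −log10 p of the Poisson model; all pileups came out whole within 0.01 in −log10 p. Motifs were searched within 100 bp of the summit of the tallest peak, on both strands. No p-values were computed, since the genes were chosen from the same peak calls and no exact test of 2 libraries against 2 could pass the usual threshold. The text names the 10 listed genes, other genes of the lists with gained minus lost of at least 2 in size, and up to 5 genes with the same gained and lost counts as Chst2, Chst3 or Galnt2. The members and all lists were chosen with earlier results of these data known. The steps were tested on simulated peaks and run with Python 3.11.15, numpy 2.4.6, scipy 1.17.1, pysam 0.24.0 and matplotlib 3.10.9. Alternatives changed the overlap, the q threshold, the number of peaks, the merging distance, the gene assignment, the scale and the libraries used.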

Additional observations from a re-analysis of the deposited data

How the results depend on the processing

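The counts of 8 gained, 8 lost and 6 shared regions depended on the peak threshold. At a −log10 q of at least 10 there were 1 gained, 4 lost and 3 shared regions, and with the 15000 strongest peaks of each library 3 gained, 3 lost and 3 shared. Assignment to the nearest start of any gene type gave 5 gained regions, as genes of other types took those of Galnt7 and 1 of Chst11, and a limit of 50 kb also gave 5. A reciprocal overlap of 50% gave 3 shared regions. Leaving out 1 library at a time gave 8 to 14 gained, 8 to 15 lost and 5 to 8 shared regions. The 3 gained regions of Chst2 were 1 to 4 across the alternatives, the 4 lost regions of Chst3 2 to 5 and the 4 of Galnt2 1 to 4. No test, paired or unpaired, was run on these peak lists. Chosen after seeing the data, a reading within same-numbered pairs (a replicate block with no test) gave 1 shared promoter higher and 2 lower at d4, against 1 and 1 when both libraries of each day were compared; nothing in the labels says that a number marks a shared experiment. By background coverage, depth limits the gained regions most, which are read against d2 libraries of lower background coverage: their heights were 1.01 to 1.81 times the smallest callable one. By shared regions the lost ones lay nearer to that limit, at 1.11 to 2.47 times.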
